A study of Homo sapiens with 2 samples.

Results

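The AP-1 transcription factor genes described here were FOS, FOSB, FOSL1, FOSL2, JUN, JUNB, JUND, ATF3, BATF3 and MAFF, 10 of 20037 protein-coding genes in the RefSeq table (GRCh38.p14) on the chromosomes that carried peaks. They were chosen by name, with earlier results of these data known. A RUNX1 peak was counted for a gene when its summit, the position with the most tags, lay in the gene's RefSeq interval or at most 50 kb from either of its ends. This gave 23 of the 13591 peaks in the deposited list. No summit lay in the windows of more than 1 member. The list compared 1 library of chromatin immunoprecipitated with an antibody to RUNX1 (80338845 tags kept) with 1 library of input DNA (87410774 tags kept). Both came from MCF10A cells, a non-tumorigenic human mammary epithelial line grown with EGF. In these cells RUNX1 had been deleted, and a lentiviral RUNX1 gene was switched on with doxycycline at 1 µg/ml for 24 hours. Knockout lines in the study were raised from single cell colonies, and the peaks are of induced RUNX1 and not of RUNX1 at its natural level. There was no replicate, so no difference was tested, and the intervals given cover counting error only.

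AP-1 is a family of dimeric transcription factors whose subunits share a basic region that contacts DNA and a leucine zipper that joins the partners. A dimer of a FOS protein and a JUN protein binds a site searched here as TGANTCA, where N is any base. Dimers with ATF or CREB proteins favour the cAMP response element (CRE), TGACGTCA. Both sets of letters read the same on either strand. Many of these genes are switched on within minutes by growth factors such as EGF. RUNX proteins bind a short core, searched here in the form TGTGGT, which is ACCACA on the other strand. RUNX and AP-1 factors are known to share many enhancers.

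All 10 genes had at least 1 peak, whereas 52.1% of all protein-coding genes had one by the same rule. Among protein-coding genes no longer than ATF3, the longest member at 55.4 kb, the share was 48.1%. At least 2 peaks were counted for 7 members, against 26.9% of protein-coding genes. FOSL1 and FOSL2 had the most, with 4 each, a number reached by 6.67% of protein-coding genes. ATF3 and MAFF had 3 each, and 13.9% of the genes had that many or more. JUNB, JUND and BATF3 had 2 each, and FOS, FOSB and JUN had 1 each. The mean was 2.3 peaks a member against 1.07 a protein-coding gene. Counted over the windows, the 23 summits in 1.1 Mb gave 20.9 summits per Mb (exact 95% Poisson interval 13.3 to 31.4), compared with 5.66 over the merged windows of all protein-coding genes.

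**Figure D1:**
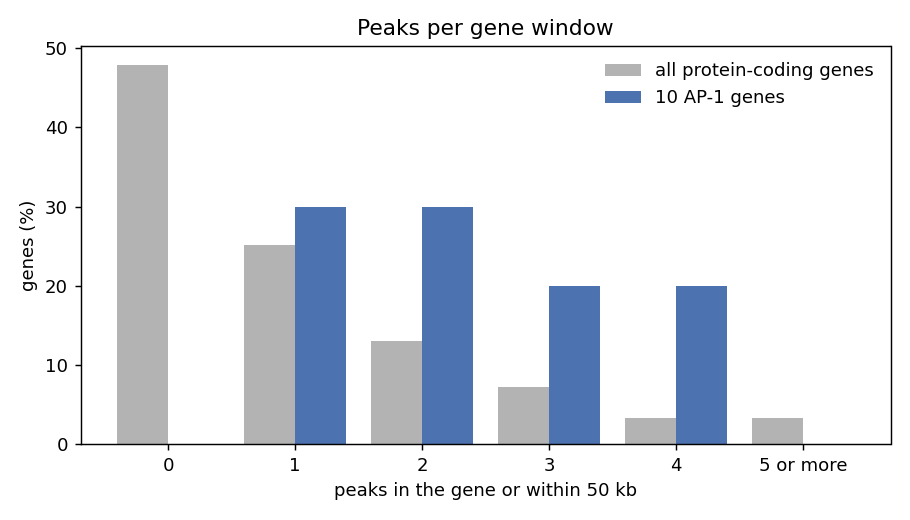
Share of genes (%, vertical axis) by the number of peaks in the gene or within 50 kb (horizontal axis), for all 20037 protein-coding genes in grey and the 10 AP-1 genes in blue. No AP-1 gene had 0 peaks, compared with 47.9% of the protein-coding genes, and none had 5 or more.

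Most peaks lay around the genes, whose intervals make up a small part of the windows. Inside a member lay 6 of 23 summits, 3 in ATF3, 2 in FOSL1 and 1 in FOSL2, so that 3 of 10 members had a peak in the gene itself against 18.7% of protein-coding genes. Another 5 summits were outside but within 5 kb, 9 were at 5 to 20 kb and 3 were farther. With 5 kb on either side, 7 members kept a peak against 24.8% of protein-coding genes, and FOSB, JUN and JUNB had none. Of the summits outside the members, 6 lay inside another protein-coding gene. For scale, 47.3% of all peaks had the summit in a protein-coding gene. For 13 of the 23 peaks the member was the nearest protein-coding gene. When each peak was given to its nearest protein-coding gene alone, 7 members had a peak against 28.8% of protein-coding genes, and FOSB, JUNB and JUND had none.

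**Figure D2:**
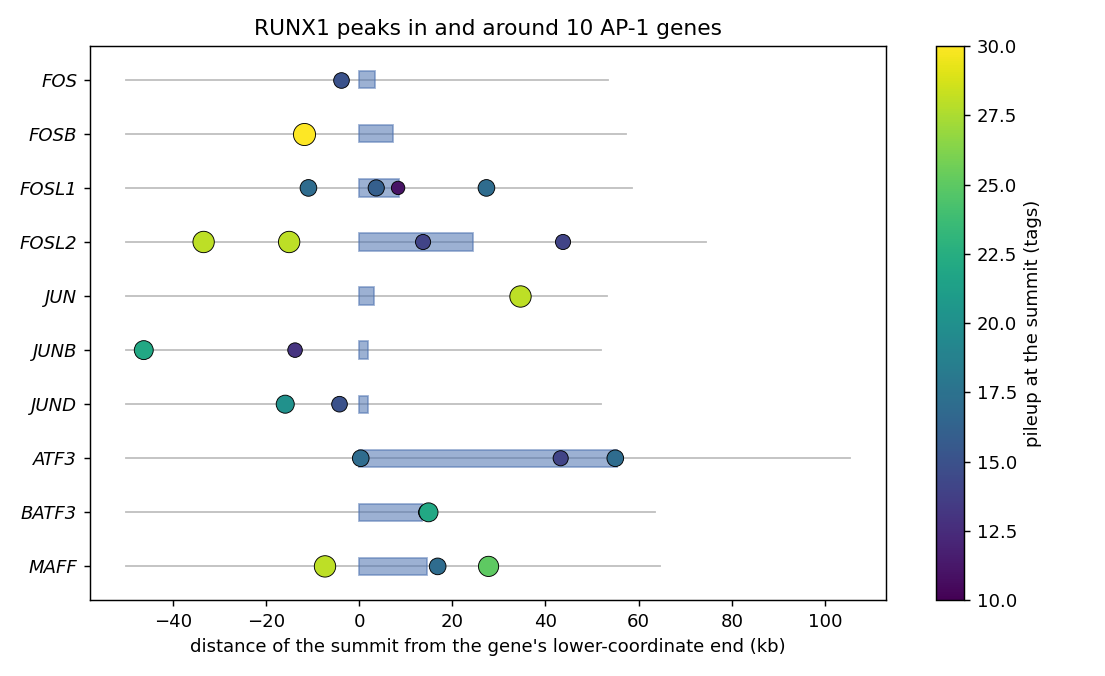
Position of each summit (kb from the lower-coordinate end of the gene, horizontal axis) for the 10 AP-1 genes, with the gene interval as a blue bar and the counted window as a grey line. Colour and size of a point give the pileup in tags. The 2 points of BATF3 overlap, and the 5 points with 28 tags or more lie outside the genes.

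**Figure D3:**
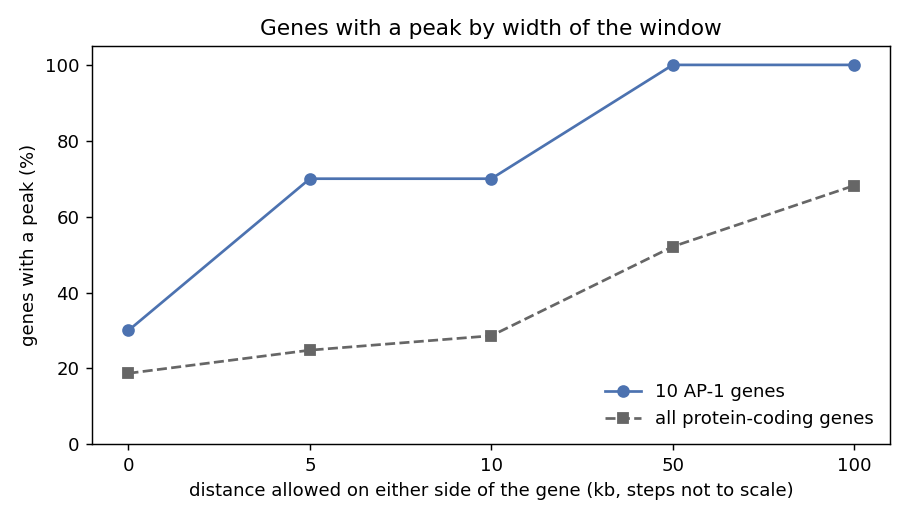
Share of genes with a peak (%, vertical axis) as the distance allowed on either side grew from 0 to 100 kb (horizontal axis, steps not to scale). The AP-1 genes went from 30 to 100% and all protein-coding genes from 18.7 to 68.2%.

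The sequence under a summit could be read for 2 of the 23 peaks, since these summits fell in a RefSeq promoter window, 250 bases before to 50 after a gene's start (GRCh38.p14). Neither window was that of a member. The parts of the peaks that lie in these windows and before the start are shown, 5′ to 3′ on the plus strand, with each RUNX core, TGTGGT or ACCACA, in capitals. The first is 217 bases of the 302 bp peak farthest upstream of FOSL2, at chr2:28359405-28359621, before a start of the lncRNA gene LOC105374382. The second is 83 bases of the 103 bp peak above FOSL1, at chr11:65919343-65919425, directly before the start of DRAP1, which encodes a corepressor of transcription.
LOC105374382: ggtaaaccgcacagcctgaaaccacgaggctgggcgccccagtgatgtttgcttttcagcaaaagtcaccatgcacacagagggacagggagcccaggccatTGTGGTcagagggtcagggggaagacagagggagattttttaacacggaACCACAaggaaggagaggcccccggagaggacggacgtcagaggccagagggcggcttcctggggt
DRAP1: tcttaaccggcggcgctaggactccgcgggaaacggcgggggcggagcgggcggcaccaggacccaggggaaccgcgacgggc
The summit upstream of FOSL2, at 28359505, stood 2 bases from TGTGGT at 28359507 to 28359512, and ACCACA began 51 bases after it. The stretch before DRAP1 held no RUNX core. For scale, 13.1% of 34943 promoter windows held a RUNX core on either strand and 1.31% held at least 2 matches. Of the 435 windows that held a RUNX1 summit, 157 or 36.1% (95% Wilson interval 31.7 to 40.7%) held a core. Windows of neighbouring starts can overlap, and neither the windows nor these shares are independent of each other.

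The members' own promoters are given next, for the members that had a promoter window. The promoter table matched 8 members with 10 starts, all but FOSL1 and BATF3. Whether a summit lay in the promoter of FOSL1 or BATF3 could not be looked at. Their summits closest to an end of the gene lay 122 bp inside the FOSL1 interval and 1.01 kb above that of BATF3. None of the 10 windows held a summit or a RUNX core, TGTGGT or ACCACA. RUNX sites with other letters were not searched, here or for the marked sites and shares above. The stretches shown may thus hold RUNX sites that are not marked. Among these 8 members ATF3 had the peak nearest to a first start and FOS had a single peak upstream. The 250 bases before the first start of each are therefore shown, at chr1:212565157-212565406 and chr14:75278578-75278827, both on the plus strand. JUND and MAFF were the members whose windows held a CRE, which 1.84% of all windows did. For these, 60 bases with TGACGTCA in capitals are shown, at chr19:18281789-18281848 on the minus strand and chr22:38201914-38201973 on the plus strand. FOSL2 was the only member with TGANTCA, as TGACTCA, 255 bases into its window. TGANTCA, with any base at N, was held by 7.72% of all windows.
ATF3: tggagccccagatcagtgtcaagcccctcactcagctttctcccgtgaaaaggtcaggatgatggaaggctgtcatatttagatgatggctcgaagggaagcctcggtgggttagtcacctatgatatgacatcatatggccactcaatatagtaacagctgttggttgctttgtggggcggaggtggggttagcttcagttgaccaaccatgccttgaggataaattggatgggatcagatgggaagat
FOS: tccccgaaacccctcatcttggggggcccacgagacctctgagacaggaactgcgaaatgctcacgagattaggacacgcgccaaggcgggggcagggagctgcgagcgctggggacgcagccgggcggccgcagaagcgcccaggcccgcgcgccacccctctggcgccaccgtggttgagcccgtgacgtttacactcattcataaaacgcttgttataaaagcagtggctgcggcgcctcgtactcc
JUND: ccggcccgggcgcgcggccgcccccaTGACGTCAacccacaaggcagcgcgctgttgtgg
MAFF: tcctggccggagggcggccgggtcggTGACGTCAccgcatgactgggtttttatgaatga
The CRE began 200 bases before the start of JUND and 54 bases before the first start of MAFF. The ATF3 and FOS stretches held none of the letters searched.

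Among the FOS family, FOS (chromosome 14, 75278828 to 75282230) encodes the founding partner of JUN and is a classical immediate-early gene. Its 1 peak had its summit 3.86 kb upstream of the start, was 175 bp long and had a pileup of 15 tags (exact 95% Poisson interval 8.40 to 24.7). Pileup counts the ChIP tags, after extension, that cover the summit, and the level of background that the caller set for that place is called the input level here. At FOS the input level was 2.20 tags, the genome-wide background, and the fold enrichment, pileup over input level with 1 added to each, was 4.997. Of all peaks, 69.6% had a higher pileup.

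FOSB (chromosome 19, 45467996 to 45475179), a close relative of FOS, had the tallest peak of the group. Its summit lay 11.7 kb upstream of the start, with 30 tags (20.2 to 42.8), a 9.55-fold enrichment over an input level of 2.24 and a length of 218 bp. A higher pileup was seen in 8.67% of all peaks. The summit was nearer to ERCC1, at 4.71 kb, which encodes a subunit of a DNA repair nuclease.

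FOSL2 (chromosome 2, 28392858 to 28417317) encodes FRA2 and had 4 peaks of unequal height. The pair upstream, 33.4 and 15.0 kb from the start, had 28 tags each (18.6 to 40.5), with fold enrichments of 9.06 and 8.94 and lengths of 302 and 269 bp. The other pair had 14 tags each (7.65 to 23.5), with 3.99-fold enrichment 13.7 kb into the gene and 4.68-fold 19.3 kb past its end. The upstream pair was thus taller than the downstream pair, although the counting intervals overlapped. Both upstream summits lay in lncRNA genes, LOC105374382 and LOC105374383. The farther one was nearer to BABAM2, at 20.6 kb, which encodes a member of a BRCA1 complex.

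FOSL1 (chromosome 11, 65892049 to 65900545) encodes FRA1, an AP-1 subunit abundant in basal-like breast cells. It also had 4 peaks, and these were low. Those inside the gene had 16 tags (9.15 to 26, 4.41-fold) and 11 tags (5.49 to 19.7, 3.19-fold). The 11-tag summit lay 122 bp inside the upper end of the interval. It had the lowest pileup of the 23, and 98.2% of all peaks were taller. The peaks on either side had 17 tags each (9.90 to 27.2). One lay 10.9 kb below the gene inside CTSW, a lymphocyte protease gene, with 3.85-fold enrichment. The other lay 18.8 kb above it, at the start of DRAP1, with 5.62-fold enrichment. Thus the FOS family held 10 peaks, and the 3 tallest were those upstream of FOSB and FOSL2.

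In the JUN family, JUN (chromosome 1, 58780791 to 58784047) encodes the subunit that can pair with itself as well as with FOS proteins. It had 1 peak, 31.3 kb upstream of its start, with 28 tags (18.6 to 40.5), 8.79-fold enrichment and a length of 257 bp. The summit was inside 2 lncRNA genes, JUN-DT and LOC101926907, and JUN was the nearest protein-coding gene.

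JUNB (chromosome 19, 12791486 to 12793315) encodes a JUN protein that is often a weaker activator than JUN. Its summits lay 46.2 and 13.7 kb upstream of the start. The farther had 22 tags (13.8 to 33.3, 7.18-fold) and was inside GET3, a gene for insertion of membrane proteins. The nearer had 13 tags (6.92 to 22.2, 2.99-fold), the lowest fold enrichment of the 23, and was inside HOOK2, which encodes a dynein adaptor.

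JUND (chromosome 19, 18279694 to 18281622) encodes the JUN protein that is made more steadily in resting cells. Both its peaks were downstream, 17.8 and 6.12 kb from the start, and past the end of the gene. They had 20 tags (12.2 to 30.9, 6.56-fold) and 15 tags (8.40 to 24.7, 3.42-fold). The farther one lay inside IQCN and the nearer was 1.05 kb from that gene. No peak of the JUN family lay inside a member.

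ATF3 (chromosome 1, 212565407 to 212620777), a stress-induced partner of JUN proteins, was the only member with all its peaks inside the gene. The summits lay 0.358, 43.3 and 55 kb downstream of the first start, with 17, 14 and 17 tags. Distances to later starts within the gene were not measured. Their fold enrichments were low, at 4.15, 3.97 and 3.22. BATF3 (chromosome 1, 212686417 to 212699840) lacks a transactivation domain and is best known in dendritic cells. Its 2 summits were 469 bp apart, 1.01 and 1.48 kb above the interval, with 15 tags (8.40 to 24.7, 4-fold) and 22 tags (13.8 to 33.3, 5.78-fold).

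ATF3 and BATF3 are neighbours on the long arm of chromosome 1. All 5 of their peaks had a raised input level, at 2.77 to 4.60 tags or 1.26 to 2.09 times the genome-wide background. Over the other 18 peaks the input level was 2.20 to 3.68 tags with a median of 2.24. A higher input lowers the fold at a given pileup by construction. The part of copy number in the number of peaks, at these or at the other members, was not tested.

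MAFF (chromosome 22, 38201994 to 38216511) encodes a small MAF protein, which has no activation domain of its own and pairs with larger basic leucine zipper factors. Its upstream peak, 7.31 kb before the first start, had 28 tags (18.6 to 40.5), 9.06-fold enrichment and a length of 306 bp. The other summits lay 2.35 and 13.3 kb past the end of the gene, both inside TMEM184B, with 17 tags (9.90 to 27.2, 5.62-fold) and 25 tags (16.2 to 36.9, 6.92-fold). The last was 604 bp long, the longest of the 23, and 0.368% of all peaks were longer.

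The tallest peaks of the group lay upstream of a member, though the member was not always the nearest gene. The 5 peaks with at least 28 tags, a limit chosen after the values were seen, were those of FOSB, JUN, MAFF and the upstream pair of FOSL2. All 5 were upstream of the gene, at 7.31 to 33.4 kb, with fold enrichments of 8.79 to 9.55 and lengths of 218 to 306 bp. The FOSB peak was nearer to ERCC1, at 4.71 kb, and the farther FOSL2 peak to BABAM2, at 20.6 kb. A peak of this height was thus near 4 of 10 members, against 10.9% of protein-coding genes. For the 8 members with a start in the promoter table, 8 peaks were upstream, with 13 to 30 tags and a median of 28. Another 9 were downstream, with 14 to 25 tags and a median of 17. The peaks of FOSL1 and BATF3 were not given a side. These ranges overlap, and the sides of the other peaks in the list were not counted, so no preference for a side can be read. Peaks inside the genes had 11 to 17 tags with a median of 15. Those outside had 13 to 30 tags with a median of 20, so these ranges overlap too. At this depth the counting interval of the FOSB peak cleared that of the 11-tag FOSL1 peak alone, so most heights could not be ordered.

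**Figure D4:**
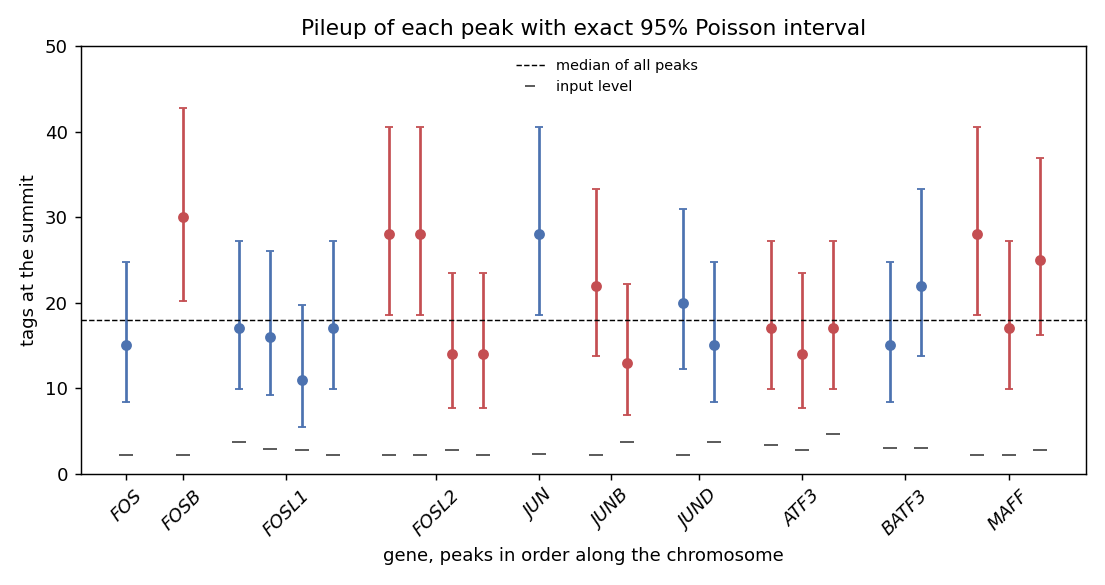
Pileup at the summit in tags (vertical axis, points) with the exact 95% Poisson interval (bars) for the 23 peaks, in order along the chromosome within each gene, with the input level as short grey lines and the median of all 13591 peaks, 18 tags, as a dashed line. FOSB at 30 tags and FOSL2, JUN and MAFF at 28 stand highest, and FOSL1 at 11 stands lowest.

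As a group the peaks were of ordinary strength. Their median pileup was 17 tags (quartiles 15 and 23.5), against 18 (15 and 23) for all peaks. The median length was 149 bp against 153 bp. A fold enrichment of at least 5 was reached by 11 of 23, or 47.8%, and by 50.6% of all peaks. Counting these stronger peaks alone, 8 members had one against 35.1% of protein-coding genes, and FOS and ATF3 had none. The pileup was at least 28 in 5 of 23, or 21.7%, and in 12.8% of all peaks.

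The wider family of basic leucine zipper genes was looked at in the same way. Of 35 other members, 26 or 74.3% had a peak within 50 kb, against the 52.1% of protein-coding genes. Those without one were ATF2, ATF5, BATF, CEBPA, CEBPD, CREM, HLF, NFE2L3 and TEF. ATF6, a sensor of endoplasmic reticulum stress, had 6 peaks, the tallest with 29 tags but only 2.94-fold enrichment, 46.7 kb from the gene. DBP and CEBPB had 4 each. Their tallest had 33 tags (22.7 to 46.3) at 48.3 kb and 22 tags (13.8 to 33.3) at 28.9 kb. No peak of ATF6, DBP or CEBPB lay inside the gene. CREB3L1 and MAF had 3 each, with up to 40 tags (28.6 to 54.5) and 35 tags (24.4 to 48.7), and BACH2, NFIL3 and NFE2L2 also had 3, with up to 21, 19 and 16 tags. Of the small MAF genes related to MAFF, named after their values were seen, MAFG and MAFK had 2 peaks each.

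Of 20 genes for kinases, ternary complex factors and other regulators of AP-1, 10 or 50% had a peak, near the share of all protein-coding genes. ELK3, which represses FOS in partnership with SRF, had 4 peaks. MAP2K1, the kinase above ERK, and MRTFA, a coactivator of SRF, had 3 each. FBXW7, which marks JUN for destruction, and the JUN kinase gene MAPK10 had 2 each, with up to 34 tags (23.5 to 47.5) and 27 tags (17.8 to 39.3). ELK4 and ELK1, which join SRF at the FOS promoter, also had 2, with up to 26 and 16 tags.

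Of 20 textbook AP-1 target genes, 19 were matched and 11 or 57.9% had a peak, near the 52.1% of all protein-coding genes. DUSP1, a phosphatase that shuts off MAP kinases, had 9 peaks. The tallest had 37 tags (26.1 to 51.0) and 8.13-fold enrichment, 1.4 kb from the gene. IVL, a structural protein of the skin surface, had 6, none inside the gene. The tallest had 28 tags (18.6 to 40.5) and 6.2-fold enrichment, 46.7 kb from the gene. PLAU, EZR, CD44 and MMP9 had 4 each. MMP9, a gelatinase gene, had the lowest of these, with up to 17 tags (9.90 to 27.2), and the tallest peak of PLAU, the urokinase gene, had 53 tags (39.7 to 69.3) and 14.4-fold enrichment at 36.4 kb. CCND1, IL6, CXCL8, HMOX1, PLAUR, MMP1, MMP3 and MMP10 had 0 within 50 kb. Input levels are not given for the genes of the further lists, and the part of copy number in their peak counts was not tested.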

How the data were processed

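Chromatin from 1 engineered MCF10A line gave 1 RUNX1 ChIP library and 1 input library, grouped by the antibody in their labels. The submitters' processing notes name Bowtie2 and hg38. Per the file headers, the authors called peaks with MACS 2.1.2 at a q-value limit of 0.05, keeping 1 tag per position and strand of 54 bp tags extended to 74 bp, which limits a pileup to 148. The deposited pileup is a signal in tags, the deposited fold enrichment is a ratio, and the authors' p and q-values are given as −log10. The input level was recovered from pileup and fold enrichment.

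Summits were assigned to RefSeq intervals with Python 3.11.15, pandas 2.3.3 and scipy 1.17.1 in code checked on made-up positions. Promoter sequences are RefSeq's (GRCh38.p14), and windows listed for several genes were counted once. Intervals are 95%. Genes named are the members, the protein-coding gene nearest a member's summit, and up to 5 genes with most peaks in each of 3 further lists, ties going to the taller peak. Genes tied with the last of these, and the basic leucine zipper and target genes without a peak, were named after their values were seen. The members and lists were chosen with earlier results of these data known, and no list was tested. Alternatives were other window widths, q at most 0.01, peaks at least 5 times enriched, nearest-gene assignment, any-base overlap and merging within 1 kb. The share at a pileup of 28 and the RUNX core at summits were added after seeing the data.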

Additional observations from a re-analysis of the deposited data

How the results depend on the processing

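Of 45 alternatives to 8 results over the lists or all genes, 24 left the count within 1.5 times or the value within its 95% interval. With the gene interval alone, members with a peak fell from 10 to 3, and 4 had one with at least 28 tags, a setting added after seeing the data. The 23 member peaks became 12 with 10 kb on either side, 11 with 5 kb, 6 in the gene alone, 36 with 100 kb (4 of them counted for both ATF3 and BATF3), 11 at a fold enrichment of at least 5 and 13 by nearest gene. The share of protein-coding genes was 28.6, 24.8, 18.7 and 68.2% for those windows in that order, 50.9% at a q limit of 0.01, 35.1% at a fold enrichment of at least 5, 28.8% by nearest gene and 48.1% for genes no longer than ATF3. The other basic leucine zipper genes with a peak fell from 26 to 13 with 5 kb. Summits per Mb went from 20.9 to 35.9 with 10 kb and to 10 at a fold enrichment of at least 5. Members with at least 2 peaks fell from 7 to 3 with 5 kb, against 9.3% of protein-coding genes, and to 2 at that fold, against 12.3%. These moves follow from counting less or more sequence, fewer genes or fewer peaks. No paired analysis was possible because the series holds a single ChIP library and a single input. With 11 to 30 tags a peak, counting error leaves most heights unordered, and no second library was analysed here.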

Other observations

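Beyond the 50 kb windows, 6 members had a summit at 50 to 100 kb, against 41.5% of protein-coding genes, and 4 (FOSL1, FOSL2, JUNB and JUND) had none. Those of BATF3 were the ATF3 peaks already described. The tallest was 82.4 kb below ATF3 and 36.7 kb from NENF, a gene for a secreted growth factor, with 40 tags (exact 95% Poisson interval 28.6 to 54.5), 10.3-fold enrichment and a length of 643 bp. Its input level was 2.98 tags, raised like that of the other peaks around ATF3. FOS had 2 further summits, 63.3 and 65.6 kb below the gene, with 15 and 21 tags. FOSB had 1 inside OPA3 with 19 tags, and JUN had 1 at 64.8 kb, upstream of its other peak, with 15 tags. MAFF had 3, of which a pair inside CSNK1E had 16 and 23 tags. In all, 32 distinct summits lay within 100 kb of a member. NENF, OPA3 and CSNK1E were named after these values were seen.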
